A study of Mus musculus with 27 samples.

Results

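Ribosome biogenesis genes were followed across 9 groups of mouse bone marrow cultures. The list named 37 genes: Myc, and 36 genes for RNA polymerase I transcription, for processing of ribosomal RNA and for assembly of the ribosomal subunits in the nucleolus. They were matched by symbol to probe sets annotated to that symbol alone, and the brightest such probe set, by its average over the arrays, stood for the gene. Of the 37, 36 were measured, among 19935 genes measured in all. Ppan, the remaining gene, shared its probe set with a different gene and has no value here. A single probe set stood for 34 genes, and Fbl and Wdr12 had 2 each.

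Bone marrow cells came from C57BL/6 mice of 8 to 12 weeks, with no genetic change in any group. One group was unstimulated, and the labels do not say whether those cells were fresh or cultured. The other groups received Flt3-L, the ligand of the receptor Flt3 and a growth factor for dendritic cell progenitors. It was secreted by transfected B16 cells, a mouse melanoma line, and used at about 200 ng/ml. They were taken at 12 h, 24 h, 48 h and 11 days. At each time a further group also received cyclosporin A (CsA), an inhibitor of the phosphatase calcineurin and thereby of NFAT transcription factors, at 2 µg/ml from 30 min before Flt3-L. Each group had 3 arrays, which the series describes as biological replicates. Whether each came from its own mouse is not stated, and CsA was not given without Flt3-L. No group without Flt3-L has a stated time in culture. Flt3-L, other products of the B16 cells and time in culture therefore cannot be told apart in the changes from unstimulated cells or over time.

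Making a ribosome starts in the nucleolus, where RNA polymerase I transcribes the long precursor of the ribosomal RNAs. Small nucleolar ribonucleoproteins (snoRNPs) of the box C/D class methylate that RNA and those of the box H/ACA class convert uridines in it to pseudouridine. The precursor is then cut and folded by large sets of factors, some for the small and some for the large subunit. Myc, a transcription factor that binds the E-box CACGTG, is known to raise the output of many genes of this pathway in growing cells.

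Values are array intensities on the linear scale, and changes are log2 differences of group means with the standard error (SE) of a limma fit to all 27 arrays. A gene is said to have risen or fallen where its Benjamini-Hochberg adjusted p, over all 19935 genes of that comparison, was under 0.05. Array medians lay between 114.2 and 124.8, and for 25 of 27 arrays the most similar array belonged to the same group. CsA 12 h array 3 and CsA 24 h array 3 were instead closest to the Flt3-L array 3 of the same time. Against unstimulated cells, 9 of 10 dendritic cell markers had risen at 11 days and 1 had fallen. All 9 macrophage and monocyte markers had risen (median 2.79, against 1.09 for the dendritic cell list). All 10 neutrophil, 7 erythroid, 7 B lineage and 7 T and NK cell markers had fallen. Of 12 progenitor markers 9 had fallen and 3 had risen. These are whole cultures, so fewer cells of a type and less RNA per cell cannot be told apart in any of the changes below.

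Promoter sequence was examined for the E-box because Myc is listed together with genes it is known to regulate. RefSeq's table for GRCm38.p6 held a promoter for 31 of the 37 genes. Myc, Fbl, Npm1, Rrp12, Rrs1 and Bop1 were not analysed here for promoter sequence. In the 250 bases before the start, CACGTG, which reads the same on both strands and was the only motif searched, was present in 2 of 31 promoters (6.5%), those of Nop2 and Rrn3. Among 15612 genes tested on the arrays it was present in 8.1%, and among 13872 of them with GC content within the members' range in 8.8%. The median GC content was 58.4% for the members and 57.6% for those 15612 genes. Shown 5′ to 3′ with CACGTG in capitals are both promoters that hold it and, for contrast, those of Nop58 and Dkc1, the genes with the widest ranges described below. The regions, all on the plus strand, are chr6:125131763-125131882 for Nop2, chr16:13780449-13780698 for Rrn3, chr1:59684886-59685005 for Nop58 and chrX:75095734-75095853 for Dkc1, and each ends at the base before the start.
Nop2: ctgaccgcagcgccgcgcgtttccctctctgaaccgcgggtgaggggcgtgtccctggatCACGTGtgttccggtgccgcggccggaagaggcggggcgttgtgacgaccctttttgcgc
Rrn3: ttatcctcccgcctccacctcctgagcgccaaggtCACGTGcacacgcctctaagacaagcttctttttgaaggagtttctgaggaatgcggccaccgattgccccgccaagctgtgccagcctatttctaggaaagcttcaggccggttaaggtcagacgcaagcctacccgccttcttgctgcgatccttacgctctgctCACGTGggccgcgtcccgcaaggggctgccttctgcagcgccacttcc
Nop58: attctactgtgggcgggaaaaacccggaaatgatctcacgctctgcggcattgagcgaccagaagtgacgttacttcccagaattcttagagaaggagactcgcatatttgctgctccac
Dkc1: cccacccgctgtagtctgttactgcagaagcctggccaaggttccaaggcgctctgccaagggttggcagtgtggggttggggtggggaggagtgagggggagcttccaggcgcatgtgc
The motif lay 60 bases before the start of Nop2 and at 215 and 48 bases before that of Rrn3. A match in these letters is a description of the sequence and not evidence of binding.

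Over the whole set, the difference between the highest and lowest of the 9 group means ran from 0.14 to 1.72 on the log2 scale, with a median of 0.70. The spread between arrays of a group was smaller, with pooled SDs from 0.04 to 0.16 and a median of 0.08. In the 5 groups without CsA, the lowest mean was at 12 h for 30 of 36 genes, at 11 days for 5 and at 24 h for 1. The highest mean was in the unstimulated cells for 20 genes, at 11 days for 12, at 48 h for 3 and at 24 h for 1. Such orders were not counted over all genes, so they have no background share.

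**Figure D1:**
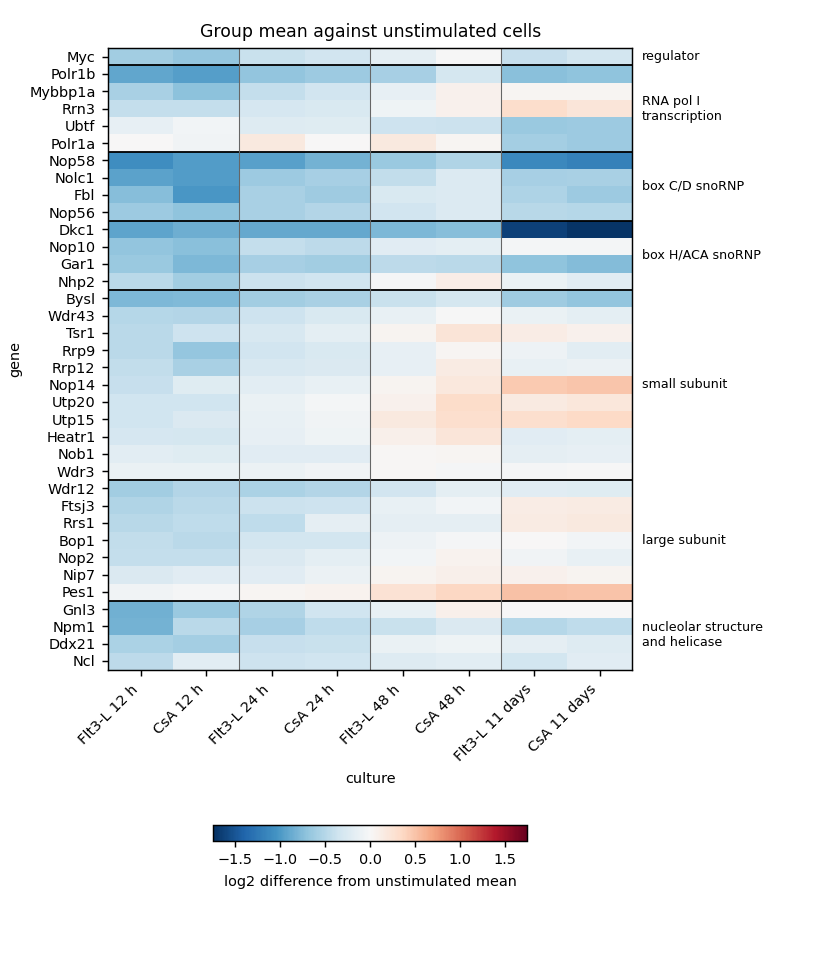
Log2 difference of each group mean (columns, n = 3 arrays) from the unstimulated mean for the 36 genes (rows, ordered by role). Most rows are bluest at 12 h with and without CsA, pale at 48 h, and split at 11 days into genes below and above the unstimulated mean.

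At 12 h of Flt3-L, transcripts for nearly every step of ribosome making were lower than in unstimulated cells. Of the 36 genes 32 fell and 0 rose, where 18.1% of all genes fell and 17.8% rose (36% in either direction). The median change was -0.48, against 0.05 over all genes. The median over the 36 genes was -0.44, -0.53 and -0.51 on the 3 arrays. On 34 of 36 genes the 3 arrays at 12 h lay apart from the 3 unstimulated ones. That was not counted over all genes, so this number cannot be set against a background share. The genes not called were Polr1a, Ubtf, Wdr3 and Pes1.

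Myc read 1339, 1204 and 1229 on the unstimulated arrays and 880, 780 and 815 at 12 h. All 3 arrays at 12 h lay below all 3 unstimulated ones. The fall was 1.53-fold (log2 -0.61, SE 0.07, limma adjusted p = 1.1e-07).

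All 4 box C/D snoRNP genes fell, with a median of -0.84. Nop58, a core protein of these particles, read 667, 714 and 808 without stimulation and 343, 351 and 333 at 12 h, so that every array at 12 h was below every unstimulated one. It fell 2.13-fold (log2 -1.09, SE 0.09, limma adjusted p = 3.37e-10). Nolc1, a chaperone that brings snoRNPs to the nucleolus, went from 715, 723 and 741 to 366, 381 and 390. Those groups lay apart by far more than their spread, at log2 -0.94 (SE 0.04). Fbl, fibrillarin, the methyltransferase of the particle, changed by -0.74 (SE 0.07) and its partner Nop56 by -0.64. A further probe set for Fbl gave -0.60.

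All 4 box H/ACA genes fell as well, with a median of -0.68. Dkc1, dyskerin, the pseudouridine synthase, read 749, 684 and 706 before and 371, 362 and 392 at 12 h, with no overlap. It fell 1.9-fold (log2 -0.93, SE 0.07). The small core proteins Nop10, Gar1 and Nhp2 changed by -0.70, -0.65 and -0.47.

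RNA polymerase I genes did not move as one. Polr1b, the second largest subunit, read 593, 679 and 750 in unstimulated cells and 346, 381 and 351 at 12 h, with no overlap, a log2 change of -0.90 (SE 0.06). Polr1a, the largest subunit of the same enzyme, read 644, 684 and 706 before and 671, 682 and 691 after, within the same range (log2 0.01, 95% interval -0.11 to 0.13). Rrn3, the initiation factor that recruits the polymerase, fell by 0.42 on the log2 scale (SE 0.05). Mybbp1a, a nucleolar protein that binds the polymerase and Myb, fell by 0.57 (SE 0.06), and Ubtf, the promoter-binding factor of ribosomal DNA, gave -0.14 and was not called. With a replicate block in the fit it was (limma adjusted p = 0.0261).

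Small subunit factors fell in 10 of 11 cases, with a median of -0.40. Bysl, needed for late small subunit maturation, had the largest change, from 234, 256 and 271 to 152, 152 and 138 (log2 -0.79, SE 0.08), and its groups lay apart. Wdr3, a component of the small subunit processome, had the narrowest range of this role, at 317, 314 and 342 before and 295, 295 and 305 at 12 h. Its arrays did not overlap, but the change of -0.12 (SE 0.06) was not called (limma adjusted p = 0.156). Nob1, the nuclease of the last small subunit cut, and the large subunit factor Nip7 lost their call when single arrays were left out.

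Large subunit factors fell in 6 of 7 cases (median -0.43), led by Wdr12 (log2 -0.61), a member of the complex it forms with Pes1 and Bop1. Pes1 itself read 438, 454 and 476 before and 454, 445 and 414 at 12 h, with overlapping arrays (log2 -0.06). The 4 nucleolar structure and helicase genes all fell (median -0.69). Gnl3, nucleostemin, a nucleolar GTPase of proliferating progenitors, went from 462, 481 and 522 to 269, 272 and 273 (log2 -0.85, SE 0.06), with the groups well apart. Npm1, nucleophosmin, changed by -0.82 (SE 0.10), Ddx21, an RNA helicase, by -0.55 and Ncl, nucleolin, by -0.45 (SE 0.06).

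Related genes outside the 36 were described from lists chosen by function. Of 43 other small subunit factors 32 fell and 0 rose, with a median of -0.35 and Utp4 and Noc4l at -0.68 each. Of 51 other large subunit factors 35 fell and 1 rose (median -0.29), Rsl1d1 at -0.70 the lowest. Among 11 snoRNP assembly factors 9 fell, and the helicases Ruvbl1 and Ruvbl2 changed by -0.85 and -0.77. Other polymerase I and III genes fell in 15 of 30 cases and rose in 1 (median -0.17). Ribosomal proteins fell in 27 of 54 cases by smaller amounts (median -0.15, Rpl12 at -0.44). Of 22 Myc targets outside the nucleolus 17 fell and 2 rose (median -0.60), with the polyamine enzyme gene Odc1 at -1.25 and the chaperone gene Hspd1 at -1.22. In the network of Myc partners and antagonists, 5 of 14 rose and 1 fell. Mxi1, an antagonist of Myc, was at 0.48 and Mnt, another, at 0.29, and their part was not tested.

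Cell type and proliferation genes moved in the same comparison. All 17 proliferation genes fell (median -0.76), and their summed intensity went from 40206 to 43165 in unstimulated arrays to 26182 to 27221. Erythroid markers fell in 5 of 7 cases (sums 25365 to 27947 against 17328 to 18735) and T and NK cell markers in 5 of 7 (4007 to 4432 against 1998 to 2204). Macrophage and monocyte markers rose in 8 of 9 and fell in 1 (5494 to 5698 against 14412 to 15181). Progenitor markers rose in 4 and fell in 3 of 12 (25643 to 26959 against 22943 to 23338), and neutrophil markers fell in 3 of 10 (61353 to 62654 against 56371 to 57609). The part of these cells in the fall of the ribosome genes was not tested.

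**Figure D2:**
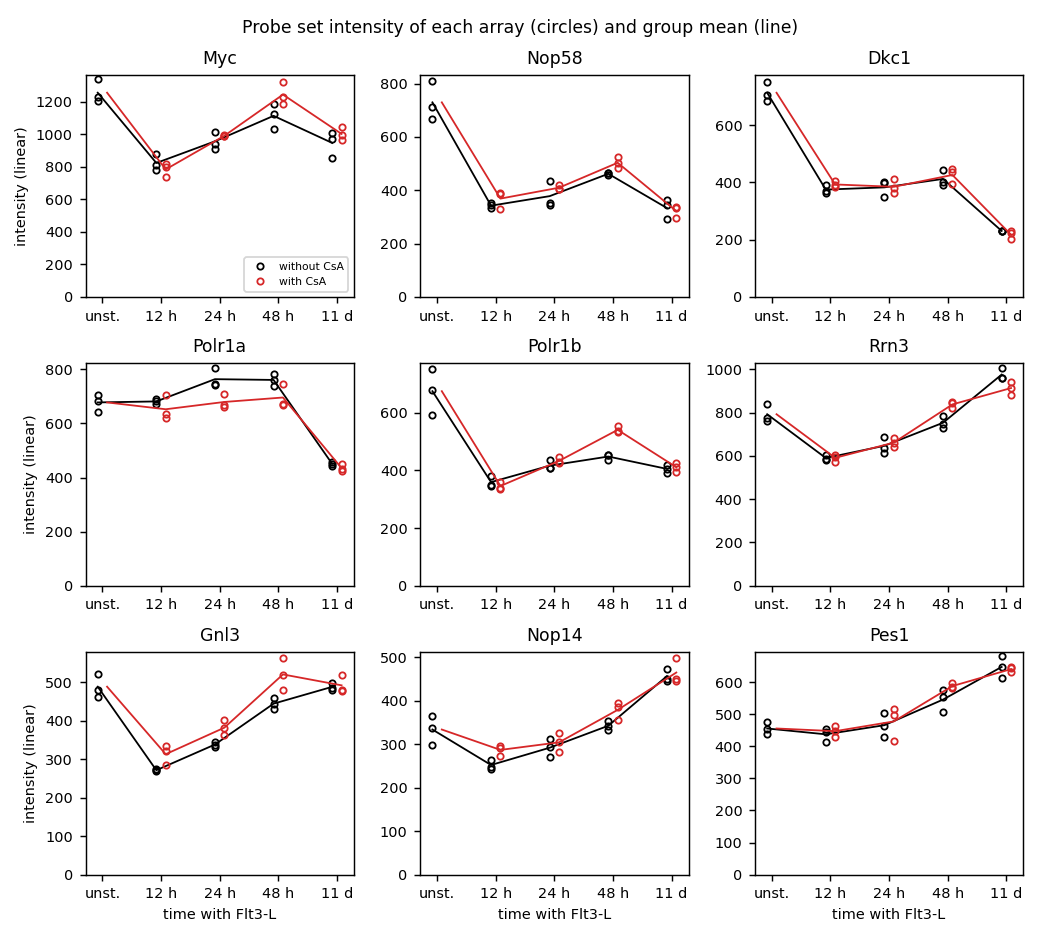
Probe set intensity (linear, y axis from 0) of every array (circles, n = 3 per group) against time with Flt3-L for 9 genes, black without CsA and red with CsA, with lines through group means that both start at the unstimulated mean. Myc and Gnl3 dip at 12 h and climb to 48 h, Dkc1 drops again at 11 days, Polr1a without CsA is higher at 24 h and 48 h than before and then falls, and Pes1 and Nop14 are highest at 11 days.

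Transcripts of these genes climbed back from 12 h to 48 h. From 12 h to 24 h, 6 of 36 rose and 0 fell (5.59% and 5.52% of all genes, 11.1% either way): Gnl3 by 0.32, Nolc1 by 0.30, Nop10 by 0.28, Utp20 by 0.23, Myc by 0.22 and Polr1b by 0.21. The call of Myc (limma adjusted p = 0.0436) ended in 12 alternatives and that of Polr1b in 6. From 24 h to 48 h, 24 rose and 0 fell (9.71% and 7.43% of all genes, 17.1% either way), with a median of 0.22 against -0.02 over all genes. Of the 32 genes that had fallen by 12 h, 23 were among these 24, in comparisons that share no arrays. With 32 of 36 genes called at 12 h a large overlap was bound to follow, and none was counted over all genes.

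The rise from 24 h to 48 h touched every role. Gnl3 read 332, 338 and 343 at 24 h and 459, 443 and 430 at 48 h, clear of each other (log2 0.39, SE 0.06, limma adjusted p = 6.4e-05). Nhp2, the H/ACA core protein, rose by 0.36, and Tsr1, a late small subunit factor, by 0.33. Utp15, a processome subunit, and Fbl both rose by 0.31, and Nop58 and Ddx21 by 0.30. Myc read 913, 943 and 1017 at 24 h and 1125, 1031 and 1188 at 48 h. Its arrays did not overlap, and the rise of 0.22 (SE 0.07) had an adjusted p of 0.03 by limma. Not called were Polr1a, Polr1b, Ubtf, Dkc1, Gar1, Bysl, Rrp12, Wdr3, Ftsj3, Rrs1, Npm1 and Ncl. With a replicate block, Ubtf was called lower (log2 -0.14, limma adjusted p = 0.0464). Without Flt3-L 48 h array 3 the count was 11, without Flt3-L 24 h array 1 it was 14, and with only the 2 groups compared in the fit it was 13. Myc lost its call in each of these 3 settings.

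Other large subunit factors rose in 18 of 51 cases and fell in 1, and other small subunit factors rose in 13 of 43 (Pno1 at 0.46). Myc targets outside the nucleolus rose in 14 of 22 (Hspd1 at 0.42), and snoRNP assembly factors in 0 of 11. Ribosomal proteins rose in 2 of 54. Mxi1 fell by 0.56 on the log2 scale and Mxd1, another Myc antagonist, by 0.34, and their part was not tested. Proliferation genes rose in 1 and fell in 3 of 17. Over the same interval macrophage and monocyte markers rose in 8 of 9 (sums 21368 to 21538 at 24 h and 28347 to 28730 at 48 h) and dendritic cell markers in 5 of 10 (13615 to 14378 against 16567 to 17694). Erythroid markers fell in 7 of 7 (13536 to 14518 against 6754 to 7585). The part of these cells in the rise was not tested.

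**Figure D3:**
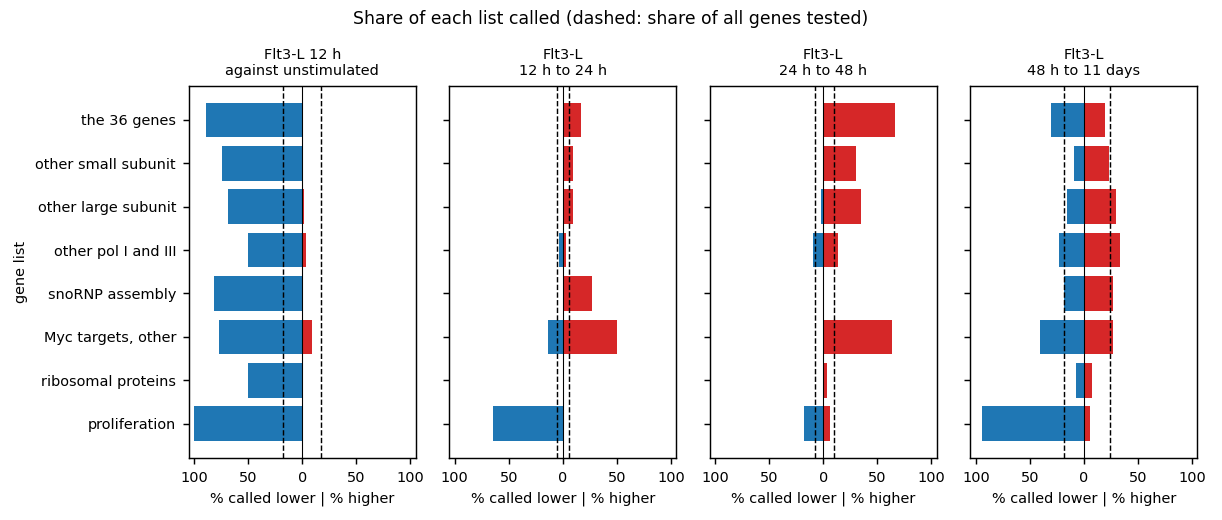
Percent of each gene list called lower (blue, left) and higher (red, right) in 4 comparisons without CsA, with dashed lines at the percent of all genes called. Most of the 36 genes are on the lower side at 12 h and on the higher side from 24 h to 48 h, while proliferation genes are on the lower side at 12 h and again from 48 h to 11 days.

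Set against unstimulated cells, which all 4 times share as control, the median of the 36 genes neared 0 up to 48 h and differed little at 11 days. At 24 h 29 genes were lower and 1 higher (17.7% and 17.9% of all genes, 35.6% either way), with a median of -0.37. At 48 h 14 were lower and 2 higher (18.6% and 18.5%, 37.1% either way), with a median of -0.14, and the 3 arrays gave medians of -0.14, -0.17 and -0.08. At 11 days 16 were lower and 5 higher (24.8% and 27.2%, 51.9% either way), with a median of -0.13. The 3 arrays at 11 days gave -0.12, -0.13 and -0.11, within the range of those at 48 h. In all, 21 of 36 were called at 11 days, near the share of all genes for both directions together. By direction, the share lower was above that of all genes and the share higher was below it. Myc gave -0.61, -0.39, -0.17 and -0.41 at the 4 times, and was not called at 48 h. Nop58 gave -1.09, -0.95, -0.66 and -1.13, and Gnl3 -0.85, -0.53, -0.14 and 0.00, called at the first 2 times only. Polr1a gave 0.01, 0.17, 0.17 and -0.59, and was called higher at 24 h and 48 h and lower at 11 days. Its calls at 24 h and 48 h were lost with only the groups compared in the fit.

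From 48 h to 11 days, 11 of the 36 genes fell and 7 rose (18.8% and 24.2% of all genes, 43% either way). The share that fell was above that of all genes and the share that rose was below it. In all, 18 of 36 were called, close to the share of all genes for both directions together. The count was 12 without Flt3-L 48 h array 3 and 13 without Flt3-L 48 h array 1 or Flt3-L 11 days array 1, with 4 rises in each case. Dkc1 read 402, 392 and 443 at 48 h and 231, 232 and 229 at 11 days, a second drop with groups wide apart (log2 -0.84, SE 0.07, limma adjusted p = 9.91e-11). At 11 days it stood 3.09-fold below the unstimulated mean, the largest change of the 36 genes (log2 -1.63, SE 0.07). Polr1a went from 784, 761 and 737 to 449, 443 and 459 (log2 -0.76, SE 0.06), again with no overlap. Nop58 fell by 0.48 (SE 0.09), Ubtf by 0.29 (SE 0.06), Heatr1, a processome scaffold, by 0.29, Fbl by 0.27, Gar1 by 0.24 and Myc by 0.24 (SE 0.07) on the log2 scale.

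Among the 7 that rose, 3 were large subunit factors (Pes1, Rrs1 and Ftsj3), a role in which 0 of 7 fell. Over all genes 24.2% rose and 18.8% fell. Ftsj3 rose by 0.25 with overlapping arrays (SE 0.10, limma adjusted p = 0.0427), a call that 5 alternatives ended. Nop14, a small subunit processome factor, read 342, 332 and 353 at 48 h and 450, 473 and 446 at 11 days, with the groups apart (log2 0.42, SE 0.07). Rrn3 read 727, 749 and 784 at 48 h and 961, 1006 and 961 at 11 days, and rose by 0.37 (SE 0.05). Pes1, which binds Wdr12 and Bop1, rose by 0.25 (SE 0.07), to 648, 615 and 681, above its 3 unstimulated arrays (log2 0.51 against unstimulated, SE 0.07). Rrs1, an early large subunit factor, rose by 0.30 (SE 0.12, limma adjusted p = 0.0462), a call that 14 alternatives ended. Within polymerase I transcription Polr1a and Ubtf fell while Rrn3 and Mybbp1a rose. The rise of Mybbp1a, 0.18, was not called without Flt3-L 48 h array 1 or array 3.

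Over the same interval, in which 24.2% of all genes rose and 18.8% fell, the related lists changed in both directions. Of 43 other small subunit factors 10 rose and 4 fell, with Pno1 at 0.57 and Riok1, a kinase of late maturation, at -0.45. Other large subunit factors rose in 15 and fell in 8 of 51 (Sbds, a late large subunit factor, at 0.57), and other polymerase I and III genes rose in 10 and fell in 7 of 30. Among the Myc network, Mxd1 changed by -2.18 and Mxi1 by -1.03, and their part was not tested. Proliferation genes fell in 16 of 17 (median -0.72), and the 1 that rose, named after its value was seen, was Pcna (0.60). Neutrophil markers fell in 10 of 10, with sums of 51168 to 55469 at 48 h and 5191 to 5749 at 11 days, and progenitor markers fell in 10 and rose in 2 of 12 (17283 to 17709 against 7093 to 7662). Macrophage and monocyte markers rose in 9 of 9 (28347 to 28730 against 41550 to 43003) and dendritic cell markers in 6 of 10, with 2 lower. The part of these cells in the changes of the ribosome genes was not tested.

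With CsA, too, most of the 36 genes had their lowest mean at 12 h. In the CsA cultures, unstimulated cells included, this held for 31 genes, and the lowest mean was at 11 days for 4 and at 24 h for 1. The unstimulated arrays are those of the series without CsA, and the order was again not counted over all genes. From 48 h to 11 days 17 fell and 2 rose with CsA (19.3% and 23.8% of all genes, 43.1% either way). The 11 genes that fell without CsA were 11 of these 17, in series that share no arrays at these times. That overlap was not counted over all genes, so it has no background share. The others were Polr1b (-0.40), Nhp2 (-0.31), Nop56 (-0.27), Rrp12 (-0.25), Rrp9 (-0.21) and Nop2 (-0.20). Dkc1 reached 222, 229 and 201 at 11 days with CsA, a difference of -0.09 from the cultures without it (95% interval -0.23 to 0.05).

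At 12 h, CsA against Flt3-L alone raised 2 and lowered 2 of the 36 genes (2.82% and 3.91% of all genes, 6.73% either way). Ncl read 1694, 1568 and 1701 without CsA and 1977, 2077 and 1911 with it, all higher (log2 0.27, SE 0.06, limma adjusted p = 0.00766). Npm1 read 859, 893 and 961 without and 1120, 1305 and 1052 with CsA, again apart (log2 0.35, SE 0.10, limma adjusted p = 0.0416). Fbl was lower with CsA, at 413, 414 and 426 against 456, 533 and 537 (log2 -0.28, SE 0.07), and its other probe set gave -0.26. Rrp9, a U3 snoRNP protein, was lower too, at 187, 190 and 191 against 226, 216 and 215 (log2 -0.21, SE 0.05). Myc gave -0.07 (95% interval -0.21 to 0.07), where the median over all genes was -0.04. With each array's median subtracted, Fbl and Rrp9 lost their calls and 1 further gene was called. A replicate block added 1 call. The 4 calls became 0 without CsA 12 h array 2 or with only the groups compared in the fit, 1 without CsA array 1, 2 without any of the Flt3-L 12 h arrays and 5 without CsA array 3. Beside them, the macrophage markers Cd14 and Adgre1 were lower with CsA (-0.75 and -0.64). With Csf1r they were the 3 called of 9 in that list, whose sums were 14412 to 15181 without and 13265 to 14799 with CsA, and their part was not tested.

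At 48 h, CsA raised 6 of the 36 genes and lowered 0 (2.17% and 2.34% of all genes, 4.51% either way), with a median of 0.11 against 0.02 over all genes. They were Rrp12, a subunit export factor, Polr1b, Utp20, Gnl3, Mybbp1a and Nolc1. Rrp12 read 226, 224 and 234 without CsA and 268, 297 and 273 with it, apart (log2 0.29, SE 0.06, limma adjusted p = 0.00422). Polr1b read 434, 454 and 454 without and 552, 534 and 535 with CsA, also apart (log2 0.27, SE 0.06, limma adjusted p = 0.011). Utp20, a processome scaffold, rose by 0.26 (SE 0.06), Gnl3 by 0.23, Mybbp1a by 0.22 and Nolc1 by 0.19. The call of Gnl3 (limma adjusted p = 0.0409) ended in 9 alternatives and that of Mybbp1a in 7. Myc read 1125, 1031 and 1188 without and 1320, 1231 and 1185 with CsA, overlapping, with a difference of 0.16 (95% interval 0.02 to 0.30) and an adjusted p of 0.251 by limma. The count was 2 without CsA 48 h array 1, 3 without Flt3-L 48 h array 1 and 1 with only the groups compared. In the same cultures 5 of 7 B lineage markers were lower with CsA (median -0.43, Ebf1 at -0.80). Sums over the 7 were 9332 to 10417 without and 6376 to 7798 with CsA. Of 12 progenitor markers 2 were lower, Gata2 and Myb (-0.41 and -0.26), and 10 were not called (median -0.02). The part of these cells was not tested.

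**Figure D4:**
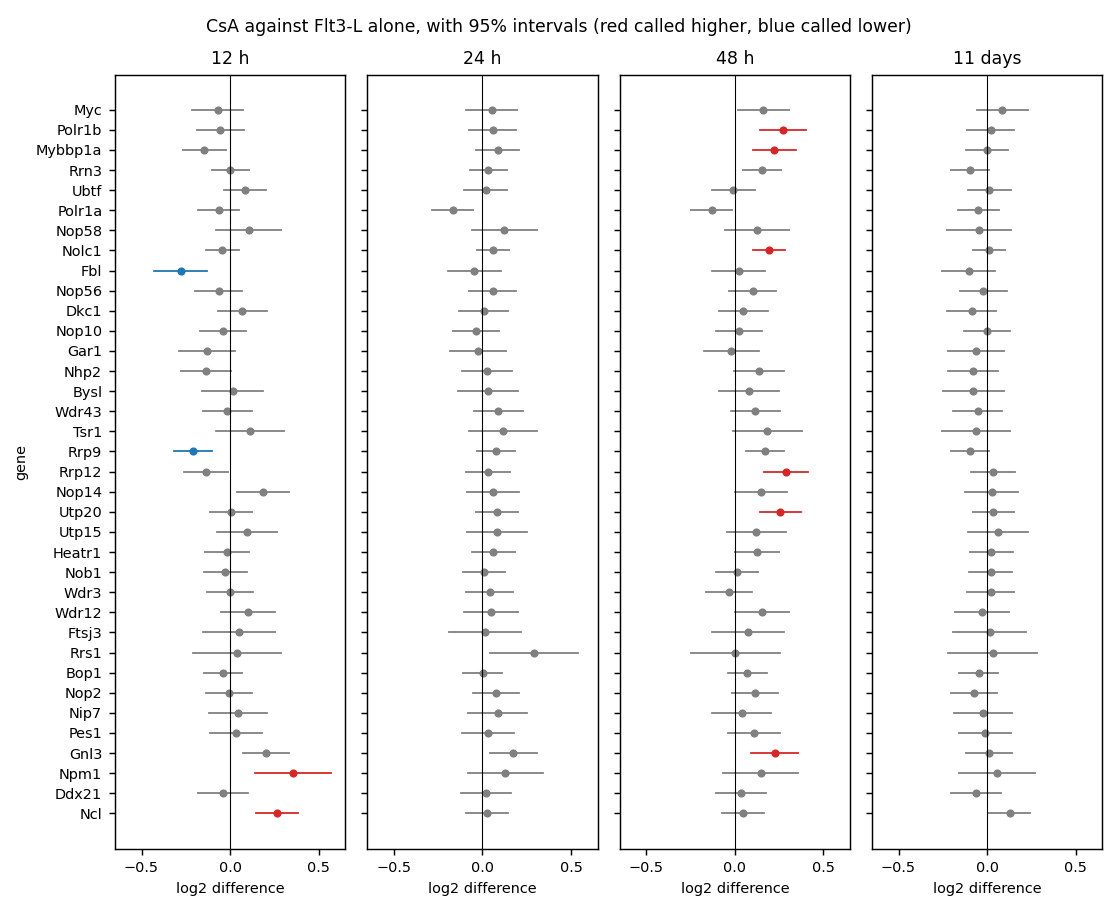
Log2 difference between cultures with and without CsA for the 36 genes at 4 times, as points with 95% intervals from the limma fit (n = 3 against 3 arrays), red where called higher and blue where called lower. Most intervals cross 0, with 4 calls at 12 h, 6 at 48 h and 0 at 24 h and 11 days.

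At 24 h and at 11 days CsA changed 0 of the 36 genes by limma, where 3.78% of all genes were called at 24 h (1.6% higher and 2.19% lower) and 12% at 11 days (4.92% and 7.08%). At an unadjusted p under 0.05, 3 genes differed at 24 h and 1 at 11 days. The 95% intervals bound how large a missed effect could be. They lay within 0.5 of 0 on the log2 scale for 35 of 36 genes at 24 h and 36 of 36 at 11 days, and the farthest bound was 0.54 and 0.28. At 12 h and 48 h they lay within it for 35 and 36 of 36 genes. For uncalled differences between cultures with and without CsA, the further probe sets of Fbl at 48 h (0.02 and -0.12) and 11 days (-0.11 and 0.02) and of Wdr12 at 12 h (0.10 and -0.04) differed in sign.

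Averaged over the 4 times, CsA raised 5 genes and lowered 1 (7.76% and 8.22% of all genes, 16% either way). Both directions together, the share is near that of the whole array. On these few genes, the share raised was above that of all genes and the share lowered was below it. The mean effects were Npm1 0.17 (SE 0.05), Gnl3 0.15 (SE 0.03), Ncl 0.12 (SE 0.03), Nop14 0.10 and Utp20 0.09, and Polr1a -0.10 (SE 0.03). The call of Nop14 (limma adjusted p = 0.0475) ended in 16 alternatives. Whether the CsA effect differed between times was tested for 2 pairs. Between 12 h and 24 h, 0 of 36 genes differed (0.12% of all genes, 0.0351% higher and 0.0853% lower), and between 48 h and 11 days 2 did, both lower at 11 days (4.65% of all genes lower and 2.31% higher, 6.96% either way). In that comparison 8 of 10 neutrophil, 6 of 10 dendritic cell and 4 of 7 T and NK cell markers were lower and 0 higher. Progenitor markers were lower in 4 of 12 and higher in 1, and B lineage markers in 3 of 7 and 1. Erythroid markers were lower in 2 of 7, and macrophage and monocyte markers were higher in 1 of 9. Neutrophil marker sums were 51168 to 55469 without and 48921 to 52338 with CsA at 48 h, and 5191 to 5749 without and 1881 to 2640 with it at 11 days. Dendritic cell marker sums were 16567 to 17694 and 15292 to 15874 at 48 h, and 22201 to 23670 and 14388 to 17395 at 11 days. The part of these cells was not tested.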

How the data were processed

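RNA from 27 cultures was hybridised to 1-colour Affymetrix arrays. The deposited intensity values had been summarised and normalized across arrays by the authors with RMA (per the submitters' processing notes; version not given). They were on a linear scale from 5.2 to 18180.7, where the plan had assumed log2, so log2 was taken of the deposited values before testing. The number of arrays limits the precision.

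Of 28815 probe sets, the platform annotation, which can be old, gave 21780 a single symbol, 1605 several and 5430 none. Those naming more than 1 gene were dropped, which also removed 3 further probe sets of Npm1. The brightest probe set was used for each of 998 genes with more than 1.

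The 9 groups, each of 3 arrays, were fitted as group means in 1 model with limma 3.58.1 (R 4.3.3), with empirical Bayes variances (23.7 degrees of freedom in all), Benjamini-Hochberg adjustment over all 19935 genes of a comparison and calls at an adjusted p under 0.05. The script was tested on simulated data. Python 3.11.15 with numpy 2.4.6 and pandas 2.3.3 made the tables, and matplotlib 3.10.9 the plots. Promoters are RefSeq's, 250 bases before each start.

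The members, the lists and the tests were chosen with earlier results of these data known. Any member could be named. For other lists up to 3 genes with the largest absolute change were named, apart from Pcna, chosen after its value was seen. Alternatives were array weights, an intensity trend, a filter on the dimmest genes, quantile normalization again, each array's median subtracted, averaging all probe sets of a gene, only the groups compared, a replicate block, and each array left out.

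Pairing by replicate number was checked through the correlation over genes between equally numbered arrays, each taken relative to its group mean. The labels state no pairing. Every pair exceeded 0.1 for CsA at 24 h and 48 h, for Flt3-L at 12 h and 24 h, and from 24 h to 48 h (0.46, 0.45 and 0.41). For those comparisons a call that the replicate block changed is given beside the result. Unequally numbered arrays, which that cut left aside, reached 0.233 for CsA at 48 h and 0.174 for Flt3-L at 24 h. CsA at 12 h missed the cut with 0.19, 0.188 and 0.098, against at most 0.016 between unequal numbers, and the block added 1 call there. All other values are from the fit without the block.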

Additional observations from a re-analysis of the deposited data

Results flagged for a closer look

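For 2 of the 36 genes the difference that CsA made changed between 48 h and 11 days. The test was of that difference itself, in the limma fit over all arrays. Of all genes 6.96% were called in it (4.65% lower and 2.31% higher), so 2 of 36 is near the share of the whole array. Rrn3, the initiation factor of RNA polymerase I, had a CsA effect at 11 days minus that at 48 h of -0.25 (SE 0.07, adjusted p = 0.0356). Its arrays read 727, 749 and 784 without CsA and 844, 849 and 822 with it at 48 h, and 961, 1006 and 961 without and 915, 943 and 884 with it at 11 days. So all 3 CsA arrays were above the others at 48 h and below them at 11 days, while neither CsA effect was called alone. For Rrp9, a protein of the U3 snoRNP, the same difference was -0.27 (SE 0.07, adjusted p = 0.0235). It read 274, 256 and 292 without CsA and 321, 305 and 299 with it at 48 h, and 279, 289 and 288 without and 269, 262 and 270 with it at 11 days. In the same comparison 8 of 10 neutrophil markers (median -1.33) and 6 of 10 dendritic cell markers (median -0.61) were lower. So were 4 of 7 T and NK cell markers (median -0.82). Progenitor markers were lower in 4 of 12 and higher in 1, and B lineage markers in 3 of 7 and 1. Erythroid markers were lower in 2 of 7, and macrophage and monocyte markers were higher in 1 of 9. The part of these cells in the values of Rrn3 and Rrp9 was not tested. The call of Rrn3 ended in 11 alternatives and that of Rrp9 in 5. Without Flt3-L 48 h array 2, Flt3-L 11 days array 3 or CsA 48 h array 1, 0 genes were called.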

How the results depend on the processing

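No called value of the 36 genes changed sign under any alternative run, while 316 of 18900 recomputed values changed sign with neither value called. With only the groups compared in the fit, which leaves fewer arrays to estimate the spread, the genes called numbered 0 for CsA at 12 h (4 in the fit reported), 1 for CsA at 48 h (6), 3 from 12 h to 24 h (6), 13 from 24 h to 48 h (24), 12 from 48 h to 11 days (18) and 0 for CsA at 11 days minus 48 h (2). With array weights they numbered 7 for CsA at 12 h, 16 from 12 h to 24 h and 1 for CsA at 11 days minus 48 h. That last count was 4 with the dimmest genes left out and 1 with each array's median subtracted, and quantile normalization again gave 1 for CsA at 24 h (0 as reported). The cause of these shifts was not tested. Leaving out each array in turn gave 0 to 5 for CsA at 12 h, 2 to 7 for CsA at 48 h, 11 to 25 from 24 h to 48 h, 0 to 3 for CsA at 11 days minus 48 h and 30 to 32 for Flt3-L at 12 h.

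With a replicate block in the model, no call was lost and no count of the 36 genes moved by over 1.5 times: 33 were called for Flt3-L at 12 h, where Ubtf was added (log2 -0.14, limma adjusted p = 0.0261), and 25 from 24 h to 48 h, where Ubtf was added as lower (limma adjusted p = 0.0464). Over all genes, CsA at 12 h called 1341 in the fit reported, 5301 with array weights, 177 with only the groups compared and 2111 with the block. With each array's median subtracted, 786 were higher and 258 lower, against 562 and 779. For CsA at 24 h minus 12 h the 24 genes called became 123, 11 and 64, and 1 higher and 15 lower with the median subtracted or 11 and 16 with quantile normalization again. With only the groups compared, CsA called 396 genes at 24 h (754 as reported) and 451 at 48 h (899).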
